A study of Caenorhabditis elegans with 18 samples.

Results

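mir-784, mir-799 and mir-1817 are 3 rare microRNAs (miRNAs) of Caenorhabditis elegans, taken by name from the 176 miRNA names counted in each library. They were chosen from these same counts, because they fell to a small share of their wild type level in animals without alg-1 and differed in how far they came back when dpf-3 was lost as well. Small RNA of whole young adult worms grown at 25 °C was sequenced from 6 genotypes, with 3 libraries each. These were the wild type strain N2 (Bristol), animals with the dpf-3 allele xe68, animals with the alg-1 allele gk214, animals with the alg-2 allele ok304, and the double mutants that join xe68 to gk214 or to ok304. They are called wild type, dpf-3, alg-1, alg-2, dpf-3;alg-1 and dpf-3;alg-2. The design asked how loss of the peptidase changes the miRNA profile with and without an Argonaute.

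A miRNA is cut from a hairpin precursor and held by an Argonaute protein, which it guides to messenger RNAs with matching sites, mostly through the bases near its 5′ end called the seed. In C. elegans, alg-1 and alg-2 encode closely related Argonautes that carry most miRNAs, and a miRNA without an Argonaute is generally short-lived. dpf-3 encodes a dipeptidyl peptidase, an enzyme that removes short pieces from the ends of proteins. Functions of mir-784, mir-799 and mir-1817 are not described here, because none is known with enough certainty to state.

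In the reference annotation (WBcel235, Ensembl release 115), mir-784 and mir-799 lie on chromosome X, as does alg-1, and mir-1817 lies on chromosome I, as does dpf-3. None of the 3 overlaps another annotated gene. The annotation gives mir-784 a mature product from each arm of its hairpin, both 22 bases long, and gives mir-799 and mir-1817 a single mature product of 22 and 23 bases. The totals used here do not tell the arms of these hairpins apart. Each total is a sum of deposited columns, and what those columns stand for is not stated. The nearest annotated miRNA genes are mir-5553 for mir-784, mir-788 for mir-799 and mir-8190 for mir-1817, and of these only mir-788 was counted in the files.

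Library totals ranged from 7.78 to 22.5 M (mega) counts. Levels are given as CPM, the usual counts-per-mega scale, in which counts are divided by the library total and by its TMM factor, a correction for composition. Together the 3 miRNAs made up 0.00838% of the wild type counts, as a mean of the libraries. All 54 of their values were whole numbers, so no read of theirs was shared out between similar miRNAs. mir-1817 ranked 94th, mir-784 100th and mir-799 126th by wild type level among the 139 miRNAs that passed the filter on low counts. mir-799 passed that filter only through the genotypes with intact alg-1, since it was nearly absent from the others.

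mir-784 was at about the same level in the 4 genotypes with intact alg-1. In wild type it was at 22.9, 27.0 and 25.0 CPM in replicates 1 to 3, from 368, 450 and 437 counts. It was at 25.7, 21.1 and 25.1 CPM in dpf-3, at 25.0, 27.6 and 25.2 CPM in alg-2, and at 27.0, 21.0 and 23.4 CPM in dpf-3;alg-2. These 12 libraries overlapped between all 4 genotypes. In alg-1 it was at 3.54, 2.63 and 3.08 CPM, from 45, 31 and 34 counts. In dpf-3;alg-1 it was at 5.99, 5.85 and 5.47 CPM, from 75, 68 and 51 counts. Every library of dpf-3;alg-1 lay above every library of alg-1, as it did for 36.7% of the 139 tested miRNAs, and below every library with intact alg-1. Against wild type alone, 36% of tested miRNAs lay lower in every dpf-3;alg-1 library and 41% in every alg-1 library.

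mir-799 was the rarest of the 3 and the one found with at most 1 count in either genotype without alg-1. It was at 4.86, 3.95 and 4.52 CPM in wild type, from 78, 66 and 79 counts. It was at 7.04, 7.27 and 5.95 CPM in dpf-3 and at 5.30, 7.63 and 6.56 CPM in dpf-3;alg-2, all above every wild type library. Of the 139 tested miRNAs, 21.6% lay above wild type in every dpf-3 library and 34.5% in every dpf-3;alg-2 library. In alg-2, mir-799 was at 8.79, 5.01 and 8.43 CPM, so replicate 2 lay close to wild type and the others well above it. A single count, in replicate 3, was found over the 3 libraries of alg-1, and 0 counts over those of dpf-3;alg-1. At the wild type level, 158 counts would have been found in alg-1 at the depth of its libraries, and 149 in the double mutant.

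mir-1817 was the most abundant of the 3 and came back furthest in dpf-3;alg-1. It was at 44.6, 59.4 and 61.9 CPM in wild type and at 69.4, 49.0 and 67.5 CPM in dpf-3. In alg-2 it was at 77.3, 76.2 and 74.0 CPM and in dpf-3;alg-2 at 76.8, 68.8 and 93.2 CPM. The 6 libraries without alg-2 function all lay above the wild type libraries. Of the 139 tested miRNAs, 27.3% lay above wild type in every alg-2 library and 34.5% in every dpf-3;alg-2 library. In alg-1, mir-1817 was at 1.10, 1.36 and 1.54 CPM, from 14, 16 and 17 counts. In dpf-3;alg-1 it was at 51.5, 36.6 and 46.3 CPM, from 644, 425 and 432 counts, which overlapped wild type.

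**Figure D1:**
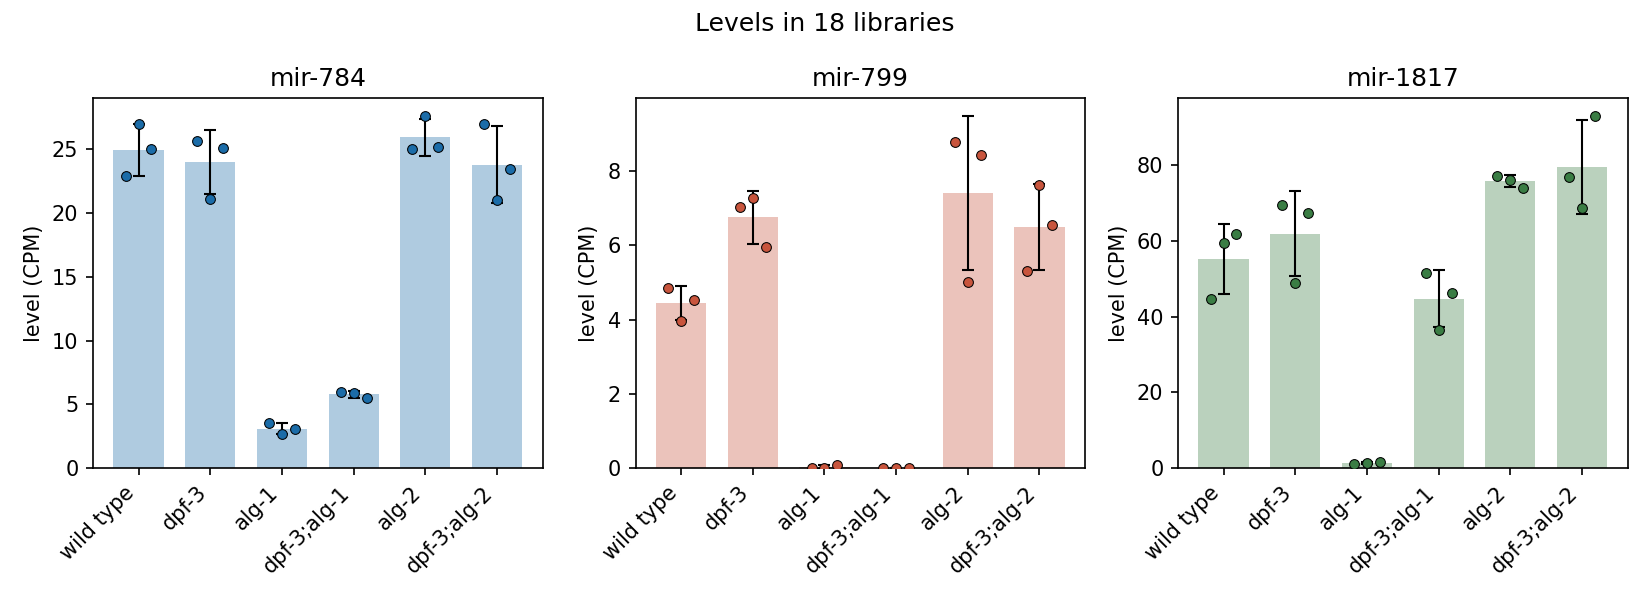
Level in CPM (y axis, a separate linear scale from 0 for each miRNA) of mir-784, mir-799 and mir-1817 in each of the 6 genotypes (x axis). Points are libraries in the order of their replicate number, bars are means and error bars are SDs over 3 libraries. All 3 are low in the alg-1 single mutant. With dpf-3 lost too, mir-1817 stands at 44.8 CPM, mir-784 at 5.77 CPM and mir-799 at 0.

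In wild type, the replicates of mir-799 varied about as much as counting alone gives, and those of mir-1817 varied more. There the coefficient of variation of mir-799 was 10.3%, where counting error alone gives 11.6%, that of mir-784 was 8.12% against 4.89%, and that of mir-1817 was 16.9% against 3.28%. Among the genotypes with intact alg-1, the largest spread was that of mir-799 in alg-2, at 28.2% against 9.44%. In alg-2 the spread of mir-1817, 2.20% against 3.02%, was within counting error.

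Because alg-1 and dpf-3;alg-1 were the libraries that chose these miRNAs, their levels there are a description, with no test. In alg-1, mir-784 was 8.09-fold below wild type, at a mean of 3.08 ± 0.456 CPM against 25.0 ± 2.03 (SD, n = 3), which is 12.4% of wild type. In dpf-3;alg-1 it reached 23.1% of wild type, 1.87 times its level in alg-1. mir-1817 was 41.5-fold lower in alg-1, at 1.33 ± 0.220 CPM against 55.3 ± 9.35, which is 2.41% of wild type. In dpf-3;alg-1 it reached 81.0% of wild type, 33.6 times its level in alg-1.

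In alg-1, mir-799 was 147-fold below wild type as a ratio of mean CPM. From counts pooled over the libraries, 1 against 223, it was 158-fold below, with a 95% counting interval from 28.0 to 6258. In dpf-3;alg-1, with 3 counts over the 3 libraries taken as the floor, it was 49.5-fold below wild type and 74.7-fold below dpf-3. The 95% counting intervals of these 2 comparisons start lower, at 39.9-fold and 60.5-fold. Both genotypes without alg-1 lay at or under that floor, so whether mir-799 differed between them was not detectable at this depth. These intervals and floors cover counting error only.

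On the log2 scale, dpf-3;alg-1 had regained 94.4% of the fall of mir-1817 from wild type to alg-1 and 29.97% of that of mir-784. Among the 129 miRNAs with at least 2 CPM in wild type, 15 were under 15% of wild type in alg-1. They included mir-35 to mir-41, of the mir-35 family of oocytes and embryos. These were low in alg-2 as well, from 1.79% (mir-41) to 4.08% (mir-38) of wild type. mir-799 was the lowest of all, mir-1817 the 4th lowest and mir-784 the 13th lowest, and just above mir-784 came mir-1020 and mir-77, both at 13.3%. The 12 others of these 15 regained 49.9% to 109% of their fall, with a median of 77.3%, so mir-784 lay under all of them. That ranking holds only under the 15% cut. Above the cut, mir-1832 stood at 19.9% of wild type with alg-1 alone lost, against 21.7% once dpf-3 was lost too. For mir-355 these levels were 28.7% and 33.5%. Both miRNAs regained a smaller share of their fall than mir-784 did. For mir-799, with 1 count in alg-1 and 0 in the double mutant, no such share was computed. In dpf-3;alg-1, mir-799 was again the lowest of the 129 relative to wild type, mir-784 the 4th lowest and mir-1817 the 46th lowest.

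**Figure D2:**
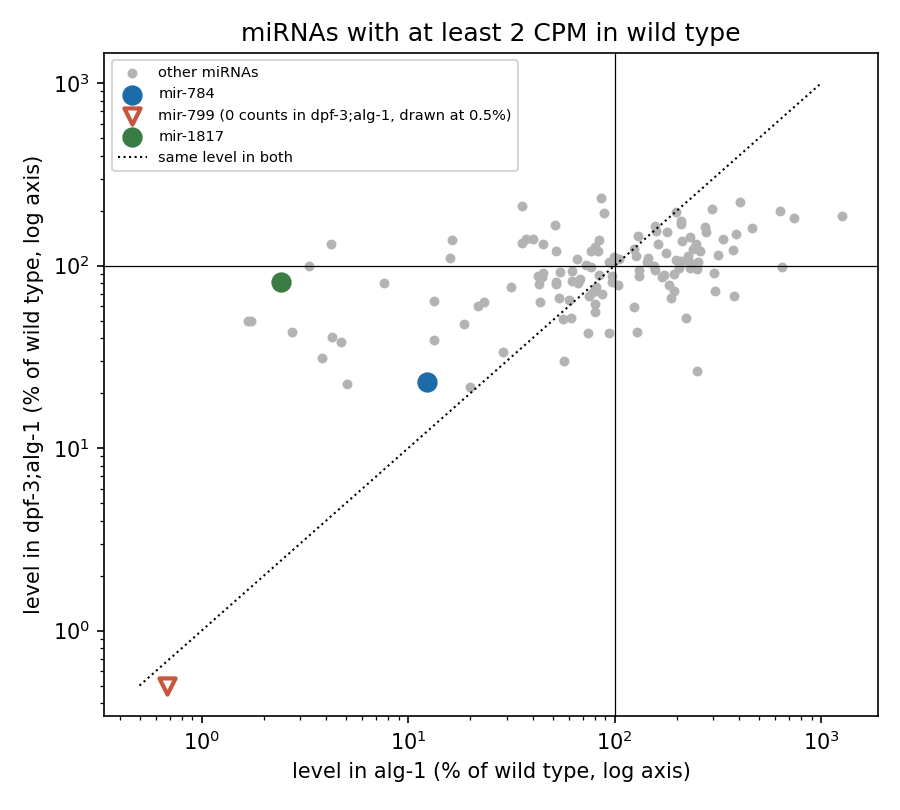
Mean level in alg-1 (x axis) and in dpf-3;alg-1 (y axis) as a percent of wild type, both on log axes, for the 129 miRNAs with at least 2 CPM in wild type. The dotted line marks the same level in both, and the open triangle is mir-799, drawn at 0.5% because it had 0 counts in dpf-3;alg-1. mir-1817 stands far above the dotted line at 81.0% of wild type in dpf-3;alg-1, mir-784 at 23.1% stands closer to it.

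The share of tested miRNAs below wild type in alg-1 was 41.7% (edgeR adjusted p below 0.05), and 34.5% were higher in the double mutant than in alg-1, in the comparisons that chose the 3. Other rare miRNAs moved both ways. Of 43 other tested miRNAs between 2 and 100 CPM in wild type, 15 were lower and 22 higher in alg-1, with a median log2 change of 0.35 against -0.08 over all 139. Of 25 other tested miRNAs with late catalogue numbers, mir-785 to mir-800 and mir-1818 to mir-1834, 9 were lower and 13 higher. Both lists were set with results of these data known, and give the setting only. The tested miRNAs nearest to the 3 in wild type level went both ways in alg-1. mir-791, a miRNA of neurons, was at 405% of wild type, mir-232 at 302%, mir-231 at 194% and mir-78 at 40.2%, all close to mir-784 in level. Around mir-1817, mir-244 was at 643%, mir-1829c at 254%, mir-1821 at 127% and mir-794 at 83.8%. Around mir-799, mir-796 was at 183%, mir-2220 at 124%, mir-2209a at 72.5% and mir-2212 at 43.2%.

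A ratio of 2 miRNAs inside a library does not depend on scaling. Wild type libraries held 1.95 to 2.47 counts of mir-1817 for each count of mir-784, and dpf-3 libraries 2.32 to 2.70. In alg-1 the order was turned round, with 0.311 to 0.516 counts of mir-1817 per count of mir-784. In dpf-3;alg-1 there were 6.25 to 8.59. The ratio was 2.76 to 3.09 in alg-2 and 2.85 to 3.98 in dpf-3;alg-2.

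**Figure D3:**
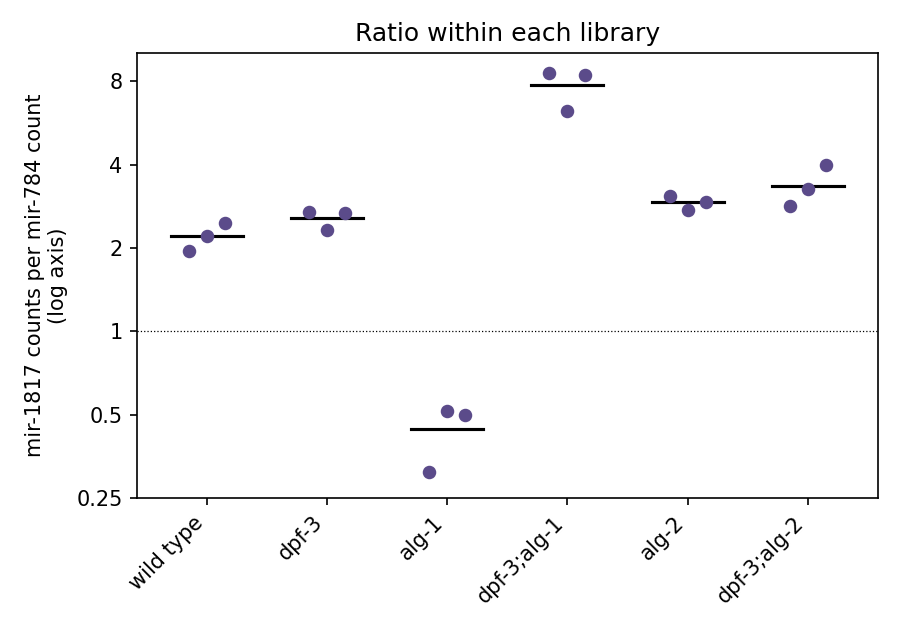
Counts of mir-1817 per count of mir-784 in each library (points, y axis on a log scale), by genotype (x axis), with the mean as a line and a dotted line at equal counts. The alg-1 libraries lie at 0.311 to 0.516 and those of dpf-3;alg-1 at 6.25 to 8.59, on either side of the libraries with intact alg-1.

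Among the 4 genotypes with intact alg-1, this ratio had no part in the choice and could be tested. On the log2 scale, with 0.5 counts added, it was higher by 0.41 in alg-2 than in wild type, by 0.60 in dpf-3;alg-2 than in wild type and by 0.38 in dpf-3;alg-2 than in dpf-3. In each of these the libraries of the genotypes lay apart. The two-sided exact permutation p was 0.1 for each, the smallest that 3 libraries against 3 allow, and 0.167 when adjusted over the 5 comparisons made. The difference was 0.22 between dpf-3 and wild type (exact permutation p = 0.2, adjusted 0.25) and 0.19 between the alg-2 genotypes with and without dpf-3 loss (exact permutation p = 0.3, adjusted 0.3). The 3 comparisons whose libraries lay apart each set libraries that have a library name in their labels (alg-2 and its double mutant) against libraries that have none, and there the genotype cannot be told apart from that difference. In the other 2 comparisons, both sides were labelled alike.

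In dpf-3, mir-799 was called higher than in wild type, by a small margin, and no change of the other 2 miRNAs passed the test. mir-799 was at 6.75 ± 0.704 CPM in dpf-3 against 4.44 ± 0.456 in wild type (SD, n = 3), which is 0.60 on the log2 scale (SE 0.21, edgeR adjusted p = 0.0428), and the libraries did not overlap. The share of all 139 miRNAs called higher here was 15.8%, and 21.6% lay above wild type in every library. Leaving out wild type replicate 1, 2 or 3 or dpf-3 replicate 1 or 2 ended the call, with changes of 0.67, 0.52, 0.61, 0.57 and 0.56 and adjusted p from 0.0638 to 0.123. The call was also lost with RLE factors (adjusted p = 0.0592), a filter of 50 counts (0.0514), DESeq2 (0.0596), limma-voom (0.0521) and a replicate block (0.0604).

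mir-784 changed by -0.06 (95% interval -0.33 to 0.21) between dpf-3 and wild type, with an edgeR adjusted p of 0.775. mir-1817 changed by 0.16 (-0.19 to 0.52), with an edgeR adjusted p of 0.48. Their dpf-3 libraries overlapped those of wild type. As a fold, the interval of mir-784 ran from 0.797 to 1.16 times wild type.

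alg-2 animals, which keep alg-1, showed no fall of any of the 3. mir-799 and mir-1817 were higher than in wild type and mir-784 was at its wild type level. mir-799 was at 7.41 ± 2.09 CPM (SD, n = 3), which is 0.76 on the log2 scale (SE 0.22, edgeR adjusted p = 0.011). mir-1817 was at 75.8 ± 1.67 CPM, a change of 0.46 (SE 0.16, adjusted p = 0.0311). mir-784 was at 25.9 ± 1.48 CPM, a change of 0.05 (95% interval -0.22 to 0.32, adjusted p = 0.748). With upper quartile factors, which set the median of all tested miRNAs to 0.87, mir-784 was at 0.87 and was called. Of all tested miRNAs 26.6% were higher in alg-2 by the same test, and 27.3% lay above wild type in every library. The call of mir-799 was lost without alg-2 replicate 1 (0.62) or replicate 3 (0.66). That of mir-1817 was lost without wild type replicate 1 (0.32), alg-2 replicate 1 (0.44) or alg-2 replicate 3 (0.47), and with a filter of 50 counts (0.36). The difference in labels named above applies here too, as it does to dpf-3;alg-2 against wild type or dpf-3.

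When dpf-3 was lost in animals that already lacked alg-2, none of the 3 changed by the edgeR test, nor by DESeq2 or limma-voom. All 6 of these libraries were labelled alike. mir-784 changed by -0.12 (95% interval -0.39 to 0.16, adjusted p = 0.631), mir-799 by -0.23 (-0.71 to 0.24, adjusted p = 0.566) and mir-1817 by 0.07 (-0.28 to 0.43, adjusted p = 0.859). The libraries of the genotypes overlapped for each. The unadjusted p was also above 0.05 for all 3, and in this comparison 18.7% of the tested miRNAs were called in either direction. The effect of dpf-3 loss on mir-799 was 0.83 lower on the log2 scale in the alg-2 background than in the wild type background (SE 0.31), which did not pass (edgeR adjusted p = 0.0513), and 28.1% of tested miRNAs did. It passed with RLE factors (adjusted p = 0.0443), upper quartile factors (0.0186), no composition factor (0.0351), the mir-35 family removed (0.0343), DESeq2 (0.0474) and without alg-2 replicate 2 (0.00979). For mir-784 and mir-1817 the same difference was -0.06 (SE 0.18) and -0.09 (SE 0.23), and neither passed.

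mir-1817 was also higher in dpf-3;alg-2 than in wild type, at 79.6 ± 12.4 CPM (SD, n = 3), which is a change of 0.53 on the log2 scale (SE 0.16, edgeR adjusted p = 0.0139). The share of tested miRNAs called higher was 28.8%. This call was lost without wild type replicate 1 (0.39) or dpf-3;alg-2 replicate 3 (0.40) and with a filter of 50 counts (0.42). mir-799, at 6.50 ± 1.16 CPM, changed by 0.53 (SE 0.22) and did not pass (adjusted p = 0.0657), though every library lay above wild type, as did 34.5% of the tested miRNAs. It passed without dpf-3;alg-2 replicate 1, at 0.66. mir-784 changed by -0.06 (95% interval -0.34 to 0.21). Against dpf-3, dpf-3;alg-2 had 29.5% of miRNAs called in either direction and none of the 3, which DESeq2 and limma-voom did not call either, with mir-1817 at 0.36 (SE 0.16, edgeR adjusted p = 0.104, unadjusted p = 0.0395), mir-799 at -0.07 (SE 0.22) and mir-784 at -0.00447 (SE 0.12). These comparisons share the wild type or the dpf-3 libraries with those above and are not independent of them.

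**Figure D4:**
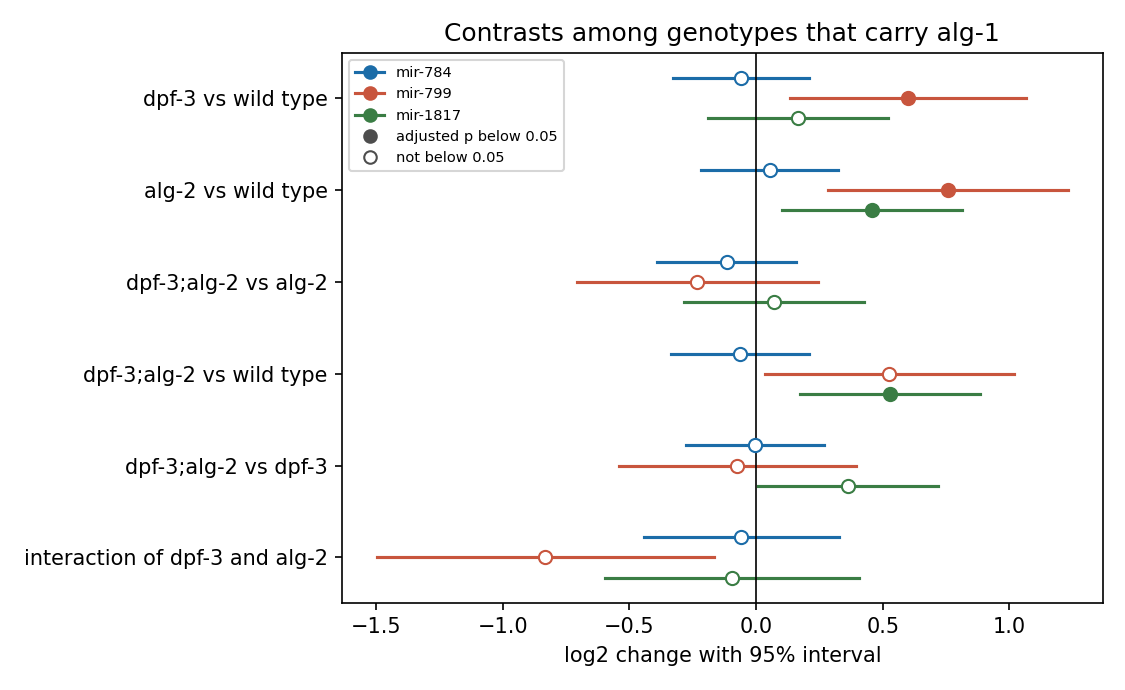
Log2 change (x axis) with its 95% interval for mir-784, mir-799 and mir-1817 in 6 contrasts (y axis) among the genotypes with intact alg-1. Filled points have an edgeR adjusted p below 0.05. The points of mir-784 lie between -0.12 and 0.05, and the filled points are mir-799 in dpf-3 and in alg-2, and mir-1817 in both genotypes without alg-2, each against wild type.

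By order of mean level, mir-784 ran alg-2, wild type, dpf-3, dpf-3;alg-2, dpf-3;alg-1 and alg-1, where the first 4 overlapped with their neighbours and the last 2 stood apart. mir-799 ran alg-2, dpf-3, dpf-3;alg-2, wild type, alg-1 and dpf-3;alg-1. Its first 3 overlapped, wild type stood apart from its neighbours on both sides, and the last 2 did not differ beyond their spread. mir-1817 ran dpf-3;alg-2, alg-2, dpf-3, wild type, dpf-3;alg-1 and alg-1. Its first 2 overlapped, a gap followed, dpf-3, wild type and dpf-3;alg-1 each overlapped with the next, and alg-1 stood apart.

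The miRNAs most like each of the 3 over the 6 genotype means differed between them. These correlations of log2(CPM + 0.5) rest on 6 points that share libraries and are a description. The points include alg-1 and dpf-3;alg-1, the genotypes that chose the 3 miRNAs. A high correlation among the 3 was therefore partly set by that choice. For mir-799, those 2 points rest mainly on the 0.5 that was added. mir-1817 was closest to mir-85 (Pearson r = 0.996), mir-359 (0.995), mir-240 (0.983), mir-82 (0.973) and mir-64 (0.970). mir-85 was at 3.30% of wild type in alg-1 and 99.2% in the double mutant dpf-3;alg-1, and mir-359 at 7.59% and 80.6%, so both fell and came back as mir-1817 did. mir-784 was closest to mir-799 (0.969), mir-785 (0.964), the mirtron mir-1020 (0.960), whose precursor is released by splicing, mir-235 (0.958) and mir-252 (0.935). mir-785 was at 18.7% of wild type in alg-1 and 47.8% in the double mutant, and mir-1020 at 13.3% and 39.1%. These returns were partial, as was that of mir-784, but larger. mir-1020 regained 53.4% of its fall on the log2 scale, against 29.97% for mir-784. mir-799 was closest to mir-236 (0.983), mir-800 (0.978), mir-787 (0.976), mir-784 (0.969) and mir-235 (0.942). mir-236, mir-800 and mir-787 were lower in the double mutant than in alg-1 by mean level, at 68.1% against 75.1%, 50.8% against 56.1% and 51.7% against 61.4% of wild type, but their falls were far smaller than that of mir-799.

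mir-788, the nearest annotated miRNA gene to mir-799, went the other way from it in alg-1. Its level was 17.5 ± 2.95 CPM in wild type and 43.9 ± 1.07 CPM in alg-1 (SD, n = 3). With dpf-3 lost, it was 73.3 ± 36.1 CPM alone and 4.61 ± 2.34 CPM together with loss of alg-1. In alg-2 it was 49.0 ± 23.7 CPM and in dpf-3;alg-2 55.3 ± 8.31 CPM. By mean level, mir-788 was therefore above wild type in alg-1, where mir-799 was nearly absent. In dpf-3, alg-2 and dpf-3;alg-2 both miRNAs were above wild type by mean level, and in dpf-3;alg-1 both were below it.

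In whole worms, fewer cells of a type and less of a miRNA per cell cannot be told apart. The 8 markers of oocytes and embryos, the mir-35 family, took 11.7% to 13.5% of the counts in wild type, 1.66% to 2.98% in dpf-3, 0.331% to 0.348% in alg-1, 4.75% to 9.05% in dpf-3;alg-1, 0.398% to 0.495% in alg-2 and 0.440% to 0.466% in dpf-3;alg-2. Their summed share was thus higher in every dpf-3;alg-1 library than in any alg-1 library. By mean CPM, mir-35 to mir-41 each went up between these genotypes, but mir-42 went down. It stood at 128% of wild type with alg-1 alone lost, against 43.5% once dpf-3 was lost too. The 5 neuron markers took 0.1199% to 0.129% in wild type, 0.112% to 0.158% in dpf-3, 0.193% to 0.265% in alg-1, 0.176% to 0.251% in dpf-3;alg-1, 0.143% to 0.170% in alg-2 and 0.0729% to 0.106% in dpf-3;alg-2. The glia marker mir-228 took 0.530% to 0.579%, 0.705% to 0.924%, 1.89% to 2.05%, 0.606% to 0.791%, 0.592% to 0.817% and 0.650% to 0.835% in the same order. The muscle marker mir-1 took 14.2% to 16.3%, 15.5% to 18.7%, 13.7% to 14.2%, 17.1% to 18.7%, 18.0% to 20.8% and 17.1% to 19.3%. In alg-2, where mir-799 and mir-1817 were called higher, the neuron, glia and muscle shares all lay above those of the wild type libraries. The neuron share is a sum of 5 markers. By mean CPM in alg-2, mir-790 (146% of wild type) and mir-791 (113%) were higher, and lsy-6 (97.5%), mir-124 (76.8%) and mir-793 (92.9%) were not. In dpf-3;alg-2, where mir-1817 was called higher, the glia and muscle shares lay above wild type and the neuron share below it. In dpf-3, where mir-799 was called higher, the glia share lay above wild type. The glia and neuron shares also lay above wild type in alg-1, where all 3 miRNAs were low, and in dpf-3;alg-1. The glia share was highest in alg-1. The 2 intestine markers took 0.210% to 0.267% in wild type, 0.298% to 0.346% in alg-1 and 0.217% to 0.269% over the other genotypes. No marker was at 0 in any genotype, and the part of cell type content in the levels of the 3 miRNAs was not tested.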

How the data were processed

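Per the labels' protocols, libraries came from whole worms by a NEBNext small RNA kit with a gel cut for miRNAs. Bowtie 0.12.7 is the tool in the submitters' processing notes. No build, miRNA annotation or counting rule is given in the sources used here, and coordinates are left out. The authors deposited expected counts (estimated counts per miRNA, not normalized), and whole values at a tolerance of 1e-06 made up 75% to 86.9% of each library. Rounding gave whole counts. The rows of mir-44 and mir-45 were identical in all 18 libraries and were added together, which left 175 miRNAs.

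One fit in edgeR 4.0.16 (R 4.3.3) held all 18 libraries, with TMM factors (0.876 to 1.10), genotype as the term and 12 residual degrees of freedom. filterByExpr (10 counts, 15 in total) kept 139 miRNAs, with a common biological coefficient of variation of 14.0%. A call is a Benjamini-Hochberg adjusted p below 0.05 in the quasi-likelihood test over all 139. Each SE was derived from the fold change and F, and 95% intervals reach 2.18 SEs to each side. The fit was tested on simulated data. Counting intervals are exact, conditional on the sum of the totals compared.

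The miRNAs, lists and comparisons were chosen with earlier results of these data known. Tests were limited to the 4 genotypes with intact alg-1, because the others chose the miRNAs. Named miRNAs are the 3, the 5 closest patterns of each, the 2 neighbours in wild type level on either side, and adjacent annotated miRNA genes. Seed sharing was planned, but sequences were not used here.

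Deviations of same-numbered libraries correlated from -0.279 to 0.39 over 15 pairs, and 5 pairs were over 0.1. Of these, 3 were the pairs of dpf-3;alg-2 with dpf-3, with and without a library name in the labels, where a replicate block changed no call of the 3 miRNAs. The main fit has no block. Replicate libraries differed by more than sampling noise in all 18 pairs (81.3 or more chi-square units per degree of freedom). Separate cultures are not stated, so the p-values cover spread between libraries that may be technical. Alternatives were RLE, upper quartile and no composition factors, filters of 50 counts or none, DESeq2 1.42.0 and limma-voom (limma 3.58.1). Others were removal of the mir-35 family, a fit of the 12 libraries with intact alg-1, a replicate block and unrounded counts. Each of those 12 libraries was also left out in turn, for the comparisons that include its genotype. The transcripts of dpf-3, alg-1 and alg-2 are not among the counts and give no check of the labels.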

Additional observations from a re-analysis of the deposited data

How the results depend on the processing

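Upper quartile factors shifted the median of all miRNAs to 0.33 in dpf-3, to 0.87 in alg-2 and, against wild type, to 0.96 in dpf-3;alg-2 and to 0.58 in dpf-3;alg-2 against dpf-3, and with them the log2 changes of mir-784 were 0.24, 0.87, 0.80 and 0.56. The last 3 of these passed the test. Relative to that median they were -0.09, -0.000762, -0.16 and -0.02. mir-1817 was then at 0.45 in dpf-3, a call, and at 0.93 in dpf-3;alg-2 against dpf-3. mir-799 was at 1.39 in dpf-3;alg-2 against wild type and 0.47 against dpf-3, and the numbers of called miRNAs were 111 in alg-2, 118 in the double mutant and 105 in dpf-3;alg-2 against dpf-3 (63, 66 and 41 with TMM). mir-784 turned to 0.042 in dpf-3 with no composition factor, to -0.044 in alg-2 with a filter of 50 counts and to 0.00409 in dpf-3;alg-2 against dpf-3 with limma-voom. The rise of mir-799 in dpf-3 lost its call with RLE factors (0.54), a filter of 50 counts (0.57), DESeq2 (0.54), limma-voom (0.59) and a replicate block (0.61). No other call of the 3 miRNAs changed with the block. With a filter of 50 counts mir-1817 lost its calls against wild type, at 0.36 for alg-2 and 0.42 for the double mutant. The difference in the dpf-3 effect on mir-799 between backgrounds passed with RLE (-0.83), upper quartile (-1.08) and no composition factors (-0.94), without the mir-35 family (-0.87) and with DESeq2 (-0.83). The cause of these shifts was not tested.

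Leaving out 1 library at a time, mir-784 ran from -0.12 to 0.042 in dpf-3, from -0.0044 to 0.11 in alg-2, from -0.16 to 0.014 in dpf-3;alg-2, from -0.22 to 0.073 in dpf-3;alg-2 against dpf-3 and from -0.18 to 0.019 for the difference between backgrounds. mir-799 ran from 0.52 to 0.69, from 0.62 to 0.95, from 0.42 to 0.66, from -0.19 to 0.062 and from -1.03 to -0.69 in the same order. mir-1817 ran from 0.032 to 0.32 in dpf-3 (0.16 with all libraries, lowest without wild type replicate 1), from 0.091 to 0.46 in dpf-3;alg-2 against dpf-3 (0.36, lowest without dpf-3 replicate 2), from 0.32 to 0.54 in alg-2, from 0.39 to 0.62 in dpf-3;alg-2, from -0.058 to 0.16 in dpf-3;alg-2 against alg-2 and from -0.27 to 0.040 for the difference. Called miRNAs ran from 23 to 38 in dpf-3;alg-2 against dpf-3 (23 without dpf-3 replicate 2) and from 18 to 45 for the difference, where 39 were called with all libraries, 18 without wild type replicate 1 and 22 without alg-2 replicate 1. The log2 ratio of mir-1817 to mir-784 kept its sign without each library and with 1 count added. In all, 412 of the alternative values were labelled the same, 22 lost a call or fell, 14 gained one or rose and 19 changed sign. For log2 changes, the same means an equal direction and side of the threshold. For numbers of called miRNAs it means a number near that of the main fit, and for the ratio an equal sign only. Changes that had no call in the main fit are included, so this total does not show how well the calls held.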
